A study of Mus musculus with 4 samples.

Results

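Excitation-contraction coupling is the step by which an action potential at the muscle surface becomes calcium release and contraction, and the genes described here encode its channels, the proteins that build the junction and the exchanger that removes the calcium. The set was defined by gene symbol: Ryr1, Ryr2, Cacna1s, Cacna1c, Cacnb1, Cacnb2, Jph1, Jph2, Trdn and Slc8a1. Of these 10 genes, 8 were listed among the 11237 gene symbols of the data, 7 in heart and 7 in tibialis anterior (TA), a fast hindlimb muscle. Ryr2 was listed for heart alone and Ryr1 for TA alone, and Cacna1s and Cacnb1, the skeletal voltage sensor and its beta subunit, are not analysed here. Why a gene is or is not listed is unstated, and a missing gene cannot be read as one with no reads.

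Hearts and TA muscles came from 10-week-old C57BL/6J males with no genetic or drug treatment named. Each tissue gave 1 library of ribosome-protected fragments (RPF), the pieces of mRNA that a ribosome shields from nuclease, and 1 library of total RNA depleted of ribosomal RNA. The 4 groups were heart RPF, heart RNA, TA RPF and TA RNA, with 1 library each. No difference below can therefore be set against the spread of replicates, and no p-values were computed. The number of animals behind a library is not stated in the labels. Levels are RPM, reads on the coding sequence relative to the coding reads of the library, or RPM per kilobase of coding sequence (per kb) where genes are compared with each other. By the steps between low values, the worth of 1 RPM was 28.2 heart RPF reads, 9.34 heart RNA reads, 28.6 TA RPF reads and 16.1 TA RNA reads. Intervals are 95% and cover counting error only. The tissue labels stood beside matching markers: 6 of 7 cardiomyocyte markers summed to 150872 RPM of RPF and 95057 RPM of RNA in heart, against 477 and 227 RPM for 5 of 7 in TA. Of 7 fast fibre markers, 4 were listed in heart and summed to 23.6 RPM of RPF and 83.5 RPM of RNA, against 208825 and 159780 RPM for all 7 in TA. Slow fibre markers (3 of 5 in each tissue) summed to 1899 RPM of RNA in heart and 8.57 RPM in TA, endothelial markers (4 of 4) to 900 and 199 RPM, and nerve markers (2 of 4 in heart, 3 of 4 in TA) to 2.15 and 16.6 RPM. The slow fibre sum in heart was mostly Tnnc1 (1735.76 RPM of RNA), with 149.52 RPM for Myh7b and 13.27 RPM for Tnnt1. In TA, Tnni1 was listed and Myh7b was not, so the slow fibre sums do not cover the same genes. They are not a measure of slow fibres in heart. The part of any of these cell types in the results below was not tested.

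In striated muscle the surface membrane dips inward as transverse tubules, where the L-type calcium channel (dihydropyridine receptor) faces the ryanodine receptor, the calcium release channel of the sarcoplasmic reticulum. In skeletal fibres the L-type channel acts as a voltage sensor that opens the ryanodine receptor by direct coupling, while in cardiomyocytes calcium that enters through the L-type channel opens it. Junctophilins tether the tubule to the reticulum, triadin links the ryanodine receptor to the calcium store protein calsequestrin, and the sodium-calcium exchanger returns the entered calcium to the outside.

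The start codons of the junctophilin and release complex mRNAs are shown first, because ribosome fragments were dense before the start codon of Jph2. Each run holds 12 bases before the ATG and 15 from it on, 5′ to 3′, with the ATG in capitals, from GENCODE M21 transcripts (GRCm38) that were matched by RefSeq accession.
Jph2 main start: agcgaggatgagATGagcgggggccgc
Jph2 upstream ATG 1: acaccagactccATGgaagctggacct
Jph2 upstream ATG 2: ggcctcccagccATGgcactgaccagc
Jph2 upstream ATG 3: tcaggagcgaggATGagatgagcgggg
Jph1 main start: gctgccccccgaATGacgggcggaagg
Trdn main start: tctgcacccaccATGactgagatcact
Ryr1 main start: gggattgccatcATGggtgatggagga
Ryr2 main start: gagcgcggagccATGgctgatgcgggc

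The main ATG of Jph2 lay on chromosome 2, minus strand, with its first base at position 163397526, and that of Jph1 on chromosome 1, minus strand, at 17097604. The 5-prime UTR of the Jph2 transcript held 3 upstream ATGs, 292, 188 and 5 nt before the main start. The first opened a reading frame of 37 codons and the second one of 31 codons, both ending within the 5-prime UTR. The third opened a frame of 2 codons whose stop codon overlapped the main ATG. No upstream ATG was found in Jph1, Trdn, Ryr1 or Ryr2, in 5-prime UTRs of 285, 241, 136 and 499 nt. Of 11135 listed genes that could be matched, 18.0% had at least 3 upstream ATGs and 51.2% at least 1. Only 3896 of these genes had a 5-prime UTR of the same length in GENCODE and in the deposited table. The Jph2 5-prime UTR was 447 nt long in the deposited table and 423 nt in GENCODE, so part of the region the authors counted was not searched. A RefSeq promoter entry of Jph2, not shown, holds a further ATG between its start site and the GENCODE transcript start. The count of 3 may therefore be too low for the region the authors counted. Slc8a1 and Cacnb2 each had 1 upstream ATG. For Cacna1c the 5-prime UTR was 178 nt in the deposited table and 0 nt in GENCODE, so it was not searched. An ATG is a description of the letters and was not tested for use as a start.

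**Figure D1:**
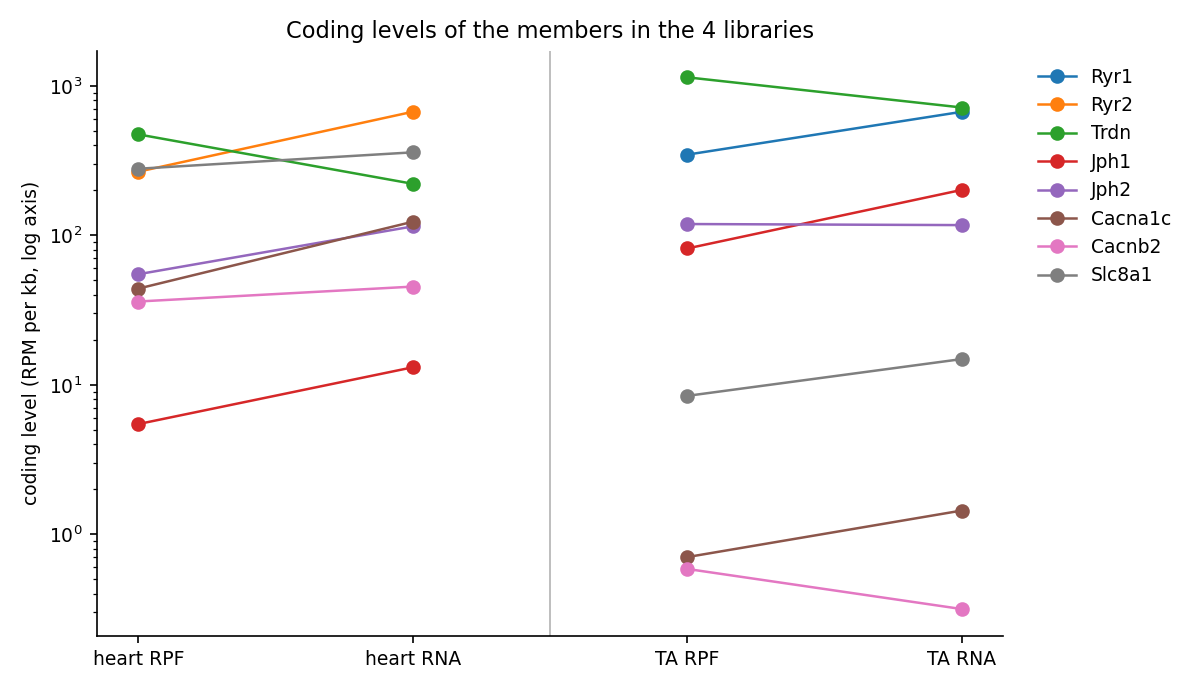
Coding levels of the listed members in RPM per kilobase (vertical log axis) in heart RPF, heart RNA, TA RPF and TA RNA, 1 point per library and lines joining the libraries of 1 tissue. Trdn leads both RPF libraries (473 in heart, 1140 in TA), and Cacna1c and Cacnb2 lie above 36 in heart and below 1.5 in TA.

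The ryanodine receptors were among the most abundant mRNAs of their tissue. Ryr2, the cardiac release channel, had 3968.95 RPM of RPF and 9993.54 RPM of RNA in heart, 0.398% and 1.01% of the coding reads, which ranked it 21 and 7 of 10791 genes. Ryr1, the skeletal release channel, had 5233.71 RPM of RPF and 10124 RPM of RNA in TA, 0.524% and 1.02% of the coding reads, ranks 23 and 11 of 10352. The pair thus took similar shares of their own tissue. Their coding sequences of 14895 nt (Ryr2) and 15102 nt (Ryr1) are long, and reads accumulate with length. Per kb, Ryr2 had 266 RPM of RPF and 671 RPM of RNA in heart, and Ryr1 had 347 RPM of RPF and 670 RPM of RNA in TA, where the RNA ranks were 133 for Ryr2 and 86 for Ryr1. Ryr3, the ryanodine receptor with broad low expression, was listed for heart alone with 3.90 RPM of RPF and 2.57 RPM of RNA, from 110 and 24 reads. Per kb, heart Ryr2 RNA was 3827 times that of Ryr3 (interval 2574 to 5977) and its RPF 1002 times (832 to 1220).

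The promoters of both main ryanodine receptor genes and of Slc8a1 are shown, the listed members with 1 promoter entry each. These promoters are RefSeq sequences of GRCm38.p6 of 300 bases around the start site, most of them before it, on the minus strand in all 3 cases. Capitals mark the muscle-related motifs searched on both strands: the E-box CANNTG, the MCAT motif CATTCC and the GATA motif AGATAA.
Ryr2 promoter, chr13:12106896-12107195: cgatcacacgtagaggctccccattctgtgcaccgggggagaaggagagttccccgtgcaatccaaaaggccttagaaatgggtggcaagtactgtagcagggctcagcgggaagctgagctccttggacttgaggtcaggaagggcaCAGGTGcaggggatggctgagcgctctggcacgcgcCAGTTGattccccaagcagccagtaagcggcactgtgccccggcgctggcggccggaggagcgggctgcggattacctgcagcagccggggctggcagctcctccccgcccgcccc
Slc8a1 promoter, chr17:81738338-81738637: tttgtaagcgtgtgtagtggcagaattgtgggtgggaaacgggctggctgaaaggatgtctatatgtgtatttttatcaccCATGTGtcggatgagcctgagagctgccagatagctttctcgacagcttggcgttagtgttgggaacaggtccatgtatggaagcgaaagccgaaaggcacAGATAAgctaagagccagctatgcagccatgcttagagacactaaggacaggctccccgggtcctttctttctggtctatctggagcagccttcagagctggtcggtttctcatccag
Ryr1 promoter, chr7:29125102-29125401: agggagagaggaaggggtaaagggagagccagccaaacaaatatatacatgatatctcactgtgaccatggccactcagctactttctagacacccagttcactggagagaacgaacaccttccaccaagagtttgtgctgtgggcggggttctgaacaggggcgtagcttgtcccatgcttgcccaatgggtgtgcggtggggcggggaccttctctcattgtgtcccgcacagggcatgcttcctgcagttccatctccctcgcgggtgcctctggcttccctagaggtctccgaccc

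The Ryr2 promoter held 2 E-boxes, the Slc8a1 promoter 1 E-box and 1 GATA motif, and the Ryr1 promoter none of the motifs. Cacna1c and Cacnb2, with larger tissue ratios than Slc8a1, have 3 and 2 promoter entries that are not shown. Those entries held E-boxes and neither of the other motifs. Slc8a1 had the only member entry with the GATA motif. Among 32851 promoters of the same length, 72.3% held an E-box, 14.7% an MCAT motif and 11.2% this GATA motif. No match says only that these letters are not in this window. A promoter entry was found for 8 of the 10 genes.

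The cardiac L-type channel and its beta subunit were far more abundant in heart. Cacna1c, the pore-forming subunit of the cardiac L-type channel, had 286.34 RPM of RPF in heart and 4.58 RPM in TA, and 801.95 RPM of RNA in heart and 9.38 RPM in TA. The heart levels were far above the TA levels in both kinds of library. The log2 ratio of heart over TA, computed after adding 0.1 RPM, was 5.94 for RPF (interval 5.72 to 6.23) and 6.40 for RNA (6.19 to 6.66), or 61.2-fold and 84.6-fold. Cacnb2, the beta subunit that partners it, had 70.78 RPM of RPF in heart and 1.15 RPM in TA, and 89.05 RPM of RNA in heart and 0.62 RPM in TA. The TA values of Cacnb2 rest on 33 RPF reads and 10 RNA reads, and its log2 ratios were 5.83 for RPF (5.44 to 6.48) and 6.95 for RNA (6.28 to 8.23). In heart, per kb, Cacnb2 stood at 0.368 of the Cacna1c level in RNA (0.342 to 0.395) and at 0.819 in RPF (0.780 to 0.861). Against the release channel it faces, Cacna1c stood per kb at 0.165 of Ryr2 in heart RPF (0.162 to 0.169) and at 0.184 in heart RNA (0.179 to 0.188). Smooth muscle also uses Cacna1c. The smooth muscle and pericyte markers, 5 of 6 listed in each tissue, summed to 649 RPM of RPF and 602 RPM of RNA in heart, against 525 and 231 RPM in TA, and their part in the Cacna1c levels was not tested. In whole tissue, fewer cells of a type and less RNA per cell cannot be told apart.

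Slc8a1, the sodium-calcium exchanger of heart, had 810.45 RPM of RPF in heart and 24.52 RPM in TA. Its RNA was at 1043.62 RPM in heart and 43.22 RPM in TA. The log2 ratio of heart over TA was 5.04 for RPF (4.94 to 5.16) and 4.59 for RNA (4.48 to 4.71), or 32.9-fold and 24.1-fold. In heart its RPF per kb equalled 1.05 times that of Ryr2 (1.03 to 1.06), while its RNA per kb was 0.535 of the Ryr2 level (0.524 to 0.546). Its paralog Slc8a3, the skeletal muscle and brain exchanger, was listed for TA alone with 20.92 RPM of RPF and 98.93 RPM of RNA. In TA, Slc8a3 per kb was 2.39 times Slc8a1 in RNA (2.19 to 2.62) and 0.892 of it in RPF (0.798 to 0.996), so the order of the exchanger pair in TA differed between the kinds of library.

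The junctophilins differed from each other in how they were divided between the tissues. Jph1, the junctophilin best known from skeletal muscle, had 10.80 RPM of RPF in heart and 161.52 RPM in TA, and 25.90 RPM of RNA in heart and 398.15 RPM in TA. Its log2 ratio was -3.89 for RPF (-4.07 to -3.73) and -3.94 for RNA (-4.13 to -3.76), so Jph1 was 14.8-fold and 15.3-fold higher in TA. Jph2, which is needed in heart and is made in both muscles, had near-equal RNA, 239.31 RPM in heart and 244.01 RPM in TA. Its RPF was 114.53 RPM in heart and 248.06 RPM in TA. The log2 ratio of Jph2 was -0.03 for RNA (-0.10 to 0.05) and -1.11 for RPF (-1.18 to -1.05), so the RNA difference lay within counting error and the RPF was 2.16-fold higher in TA. Libraries scaled without the 50 most abundant genes gave -0.62 for Jph2 RNA and -1.64 for RPF. Per kb, Jph2 made up 91.0% of the junctophilin pair in heart RPF (89.9 to 91.9%) and 89.8% in heart RNA (88.5 to 90.9%). In TA it made up 59.3% in RPF (58.4 to 60.2%) and 36.8% in RNA (35.8 to 37.7%). Jph1 was thus the more abundant junctophilin mRNA in TA and Jph2 the one with more ribosome fragments there. Jph3 and Jph4, the junctophilins of neurons, are not analysed here.

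Trdn, triadin, had 982.51 RPM of RPF in heart and 2366.02 RPM in TA, and 458.82 RPM of RNA in heart and 1486.65 RPM in TA. Its log2 ratio was -1.27 for RPF (-1.29 to -1.25) and -1.70 for RNA (-1.74 to -1.65). Trdn was high in both tissues, with RPF ranks per kb of 254 in heart and 65 in TA. Relative to the release channel of the same tissue, Trdn per kb stood at 1.78 times Ryr2 in heart RPF (1.75 to 1.80) and 0.329 of it in heart RNA (0.319 to 0.340). In TA it stood at 3.29 times Ryr1 in RPF (3.26 to 3.32) and 1.07 times in RNA (1.05 to 1.08). In both tissues the ratio of Trdn to its channel was higher in RPF than in RNA. The triadin gene gives several isoforms that differ in their 3-prime part. With 1 transcript model counted per gene, the reads of the isoforms could not be told apart. The per kb levels of Trdn divide by all 2076 coding nt of that model. Its RNA density was uneven in heart, at 1.79 times the coding density in the 5-prime UTR and 0.158 in the 3-prime UTR. In TA the same ratios were 0.885 and 0.668. The part of this unevenness in the ratios to Ryr2 and Ryr1 was not tested.

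**Figure D2:**
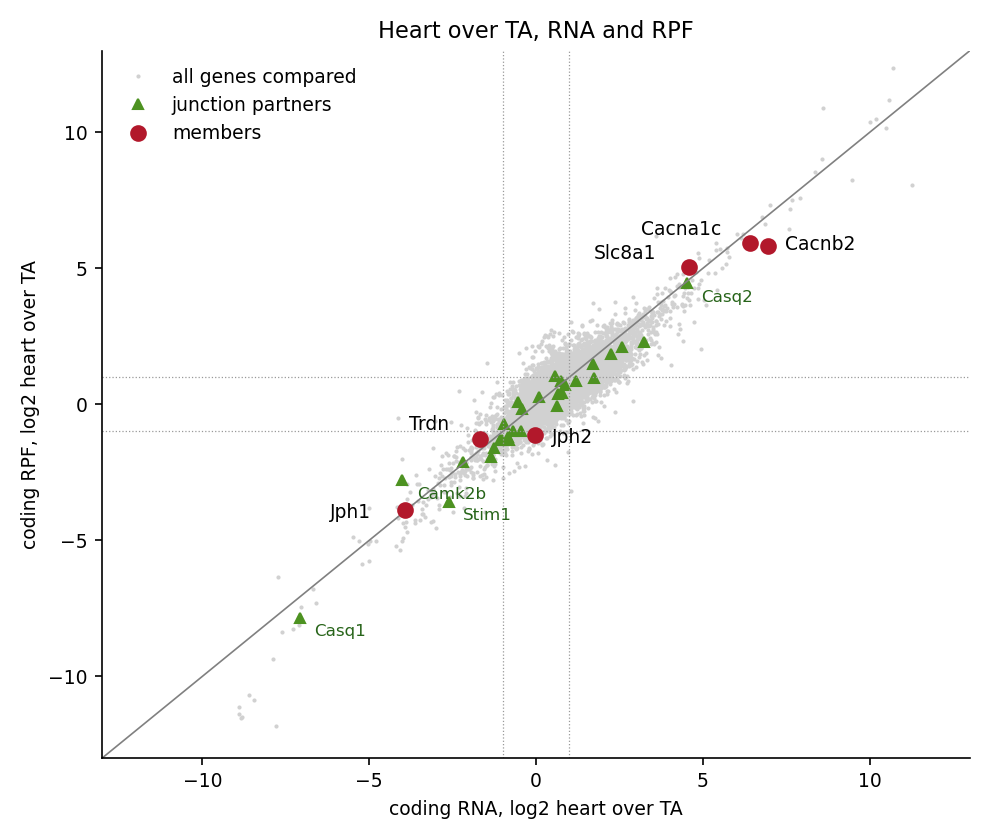
Log2 ratio of heart over TA for coding RNA (horizontal) and coding RPF (vertical), 1 point per gene, with the diagonal of equal ratios and dotted lines at 2-fold. Cacna1c, Cacnb2 and Slc8a1 lie high, Jph1 and Trdn low, and Jph2 sits at -0.03 in RNA and -1.11 in RPF.

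Of the 6 members compared between tissues, 3 had at least 2-fold more RNA in heart, 2 at least 2-fold less, and Jph2 was within 2-fold, with a median log2 ratio of 2.28. Over all 9842 genes compared, 35.0% met the 2-fold rule upward in heart RNA and 3.89% downward, with a median of 0.70. In RPF 3 members were higher and 3 lower, with a median of 1.96, where 30.1% of genes were higher and 5.08% lower, with a median of 0.60. Centred on the median gene, the counts of members stayed at 3 higher and 2 lower in RNA and at 3 and 3 in RPF. The background then was 13.5% higher and 10.5% lower in RNA, and 11.9% higher and 12.1% lower in RPF. The centred log2 ratios for RNA were 5.71 for Cacna1c, 6.26 for Cacnb2, 3.89 for Slc8a1, -4.63 for Jph1, -2.39 for Trdn and -0.72 for Jph2.

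Translational efficiency, log2 of RPF over RNA relative to the median gene of the tissue, lay below the median gene for Ryr1, Ryr2, Cacna1c and Jph1 and above it for Trdn in each tissue that listed them. In heart, Trdn stood at 1.54 (interval 1.49 to 1.59), percentile 93.2 of 10680 genes, and was the only one of 7 members at least 2-fold above the median gene, where 16.0% of all genes were. Cacna1c stood at -1.05 (-1.09 to -1.0), percentile 16.8, and was the only member at least 2-fold below, where 17.8% of genes were. Ryr2 stood at -0.89 (-0.90 to -0.88), Jph1 at -0.81 (-1.07 to -0.57) and Jph2 at -0.62 (-0.70 to -0.54). Cacnb2 at 0.11 (-0.01 to 0.23) and Slc8a1 at 0.08 (0.04 to 0.11) lay near the median gene. The median of the 7 members was -0.62.

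In TA, none of 6 members was at least 2-fold above the median gene, where 15.4% of 10029 genes were. Jph1 at -1.04 (-1.10 to -0.99) was the only one at least 2-fold below, where 18.7% of genes were, and its interval reached across the threshold. Trdn was again the highest member at 0.93 (0.91 to 0.95), percentile 82.9. Ryr1 stood at -0.69 (-0.70 to -0.68), Cacna1c at -0.76 (-1.12 to -0.43), Slc8a1 at -0.56 (-0.71 to -0.41) and Jph2 at 0.28 (0.23 to 0.34). The median of the 6 was -0.62. Cacnb2 had less than 1 RPM of RNA in TA and was given no efficiency there. Over all genes the efficiency fell with coding length, with a Spearman rho of -0.39 in heart and of -0.35 in TA that describes genes and not replicates. With that trend removed the ryanodine receptors turned sign, to 0.51 for Ryr2 in heart and 0.67 for Ryr1 in TA, and Cacna1c stood at -0.14 in heart and 0.12 in TA. Trdn (1.76 in heart, 1.14 in TA), Jph1 (-0.61 in heart, -0.85 in TA) and Jph2 (-0.40 in heart, 0.49 in TA) kept their signs. On that scale Trdn passed 2-fold in both tissues, and neither Cacna1c nor Jph1 did.

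**Figure D3:**
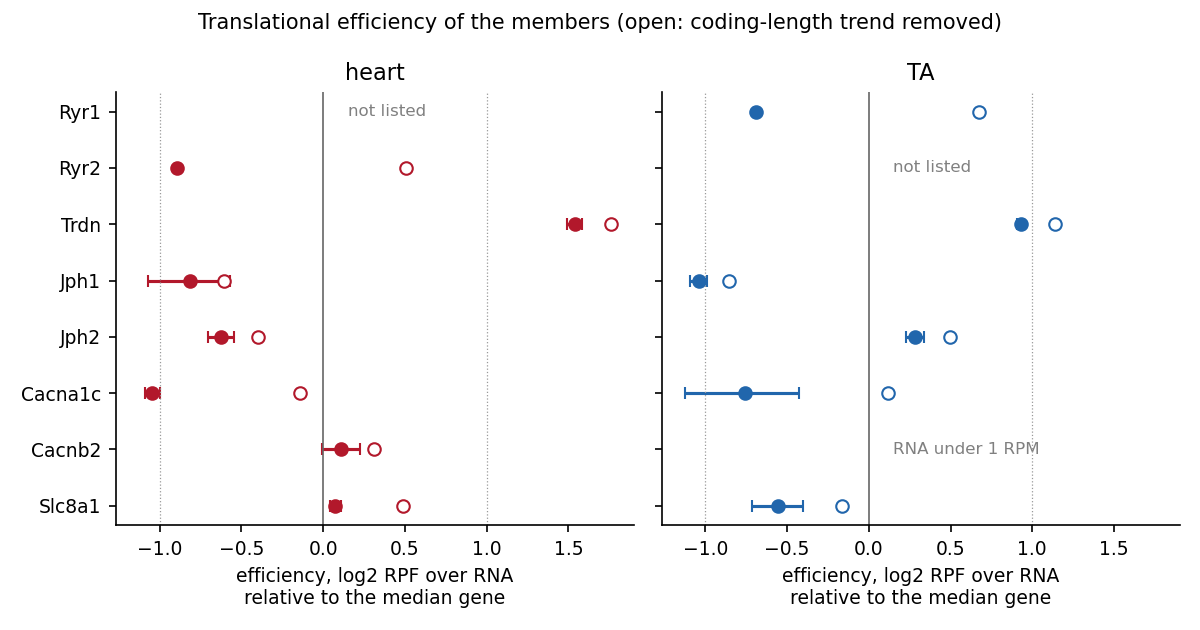
Efficiency of each member (horizontal axis, log2 RPF over RNA relative to the median gene) in heart (left) and TA (right), with filled points and 95% counting intervals, and open points after removal of the coding length trend. Trdn lies highest in both tissues, and Jph2 lies at -0.62 in heart and 0.28 in TA.

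The efficiency of Jph2 differed most between the tissues among the 5 members that could be compared. Its heart minus TA difference was -0.91 (-1.0 to -0.81), percentile 3.4 of 9634 genes. Slc8a1 and Trdn lay on the other side with differences of 0.63 (0.48 to 0.79) and 0.61 (0.56 to 0.66). Jph1 at 0.23 (-0.02 to 0.48) and Cacna1c at -0.29 (-0.63 to 0.05) had intervals that held 0. None of the 5 was at least 2-fold apart, where 6.41% of genes were. Without centring on the median gene the Jph2 difference was -1.09, past 2-fold.

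Ribosome fragments were denser on the 5-prime UTR of Jph2 than on its coding sequence. The 5-prime UTR had 91.79 RPM of RPF in heart and 135.96 RPM in TA, beside 80.91 and 95.95 RPM of RNA. This was 44.5% of the 5-prime UTR and coding RPF of Jph2 in heart, with a Wilson interval of 43.2 to 45.8%, and 35.4% in TA, with one of 34.5 to 36.3%. The median gene had 1.89% in heart and 1.24% in TA, and Jph2 lay at percentiles 96.9 and 96.5. Per nt, its 5-prime UTR held 3.74 times the RPF of the coding sequence in heart and 2.56 times in TA. The same ratio in RNA was 1.58 in heart and 1.83 in TA. A 5-prime UTR denser in RPF than the coding sequence was found in 15.6% of 10670 genes in heart and 11.5% of 10231 in TA, and Jph2 was the only listed member among them in either tissue. The log2 ratio of heart over TA for Jph2 5-prime UTR RPF was -0.57 (-0.64 to -0.49), against -1.11 for its coding RPF. Where within the UTR the fragments lay, and so which of the upstream ATGs above they were near, cannot be read from these sums.

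The other members had smaller shares of their fragments before the start codon. Jph1 had 11.3% in heart (8.41 to 15.1%), from 39 reads, and 4.70% in TA (4.14 to 5.33%). Per nt, its 5-prime UTR held 0.886 of the coding RPF density in heart and 0.342 in TA. In RNA its 5-prime UTR was thin, at 0.0562 of the coding density in heart and 0.0627 in TA, on 2 and 58 reads. Relative to the RNA ratio, the RPF ratio was thus raised more for Jph1 than for Jph2 in both tissues. For Jph1 in heart this rests on those 2 RNA reads. Trdn had 3.07% in heart and 1.08% in TA, Ryr2 0.397% in heart and Ryr1 0.017% in TA. Cacna1c, Cacnb2 and Slc8a1 had 0.821%, 0.799% and 0.539% in heart. In TA those 3 genes had 0 fragments there. Taking 3 reads as the limit that a count of 0 allows, the share could be up to 2.29% for Cacna1c, 9.09% for Cacnb2 and 0.428% for Slc8a1, and the upper Wilson bounds were 2.85%, 10.4% and 0.545%.

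**Figure D4:**
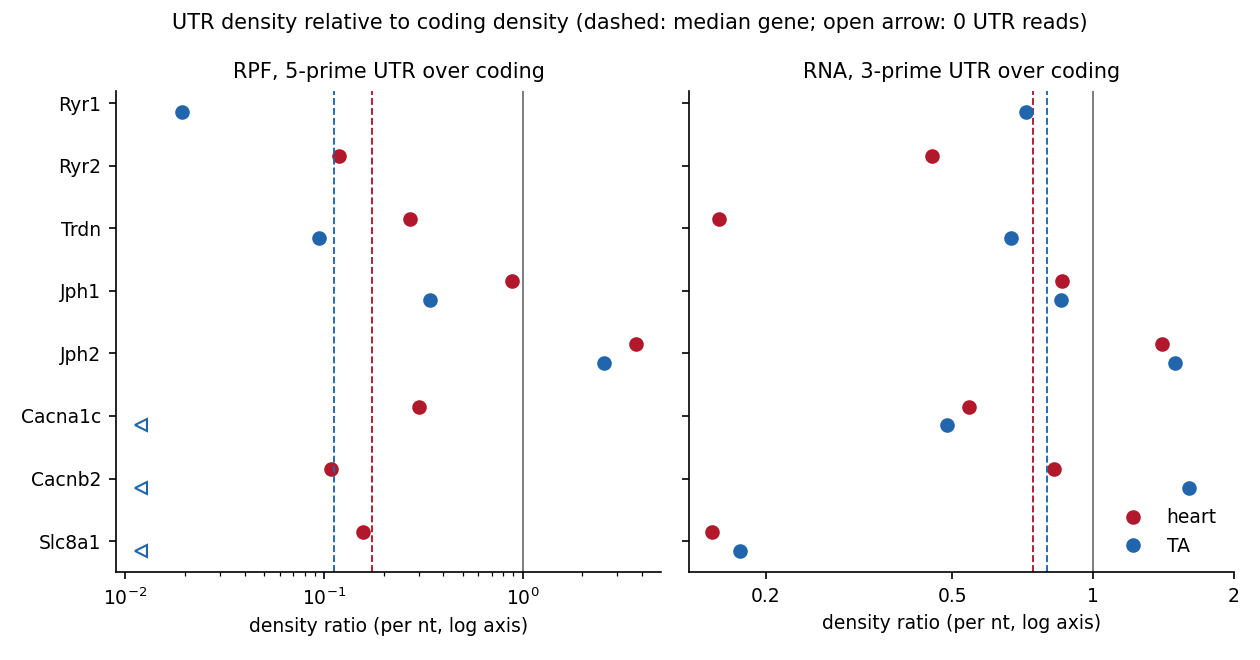
Ratio of UTR density to coding density per nt (log axes) for RPF in the 5-prime UTR (left) and RNA in the 3-prime UTR (right), with heart in red above TA in blue and the median gene dashed. Jph2 alone lies above 1 on the left (3.74 in heart, 2.56 in TA), and Trdn on the right lies at 0.158 in heart and 0.668 in TA.

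RNA in the 3-prime UTR of Trdn differed between the tissues by more than its coding RNA did. It was 76.74 RPM in heart and 1048.69 RPM in TA, a log2 ratio of -3.77 (-3.88 to -3.66), against -1.70 for the coding sequence. Per nt the 3-prime UTR held 0.158 of the coding RNA in heart, percentile 5.6, and 0.668 in TA, percentile 36.4, where the median gene had 0.743 and 0.797. The efficiency of Trdn in heart rests on the coding sequence of the same model, and the part of isoforms in it was not tested. Slc8a1 had a thin 3-prime UTR in both tissues, 0.154 of the coding density in heart and 0.176 in TA over 15586 nt. Jph2 had a dense one, 1.40 in heart and 1.50 in TA. For Jph1 the ratio was 0.859 in heart and 0.854 in TA, and for Cacna1c 0.543 in heart and 0.487 in TA. Ryr2 had 0.452 in heart and Ryr1 0.718 in TA.

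The other genes of the calcium release junction were read from 5 lists of 45 genes in all, of which 39 were listed and 29 compared between tissues. By the same 2-fold rule 7 of the 29 were higher in heart RNA and 8 lower (median -0.44), and in RPF 6 were higher and 10 lower (median -0.07), to be read against the shares over all genes above. Centred on the median gene, a setting added after the data were seen, 6 were higher and 15 lower in RNA, and 4 higher and 13 lower in RPF. In efficiency, 10 of 32 partners were at least 2-fold above the median gene in heart and 2 below, where 16.0% and 17.8% of all genes were. In TA 7 of 36 were above and 2 below, where 15.4% and 18.7% of all genes were. Those below were the IP3 receptors Itpr1 (-1.43) and Itpr2 (-1.56) in heart, and Itpr2 (-1.41) and Slc8a3 (-1.98) in TA. With the coding length trend removed, the IP3 receptors no longer passed, at -0.39 for Itpr1 and -0.53 for Itpr2 in heart and -0.40 for Itpr2 in TA.

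In the release complex of the junctional reticulum, 2 of 9 were higher in heart RNA and 2 lower, and in RPF 2 were higher and 3 lower. Beside this, 35.0% of all genes compared were higher in heart RNA and 3.89% lower, and 30.1% and 5.08% in RPF. Once centred on the median gene, Asph (-1.53), Srl (-1.13) and Tmem38b (-1.24) were also past 2-fold lower in RNA. The 2 higher genes stayed higher. In RPF, Srl and Tmem38b stayed within 2-fold when centred. The calsequestrins, the calcium store proteins that triadin binds, were split by tissue. Casq2, the cardiac form, had 1379.98 RPM of RPF and 1031.42 RPM of RNA in heart, against 62.68 and 44.96 RPM in TA. Casq1, the skeletal form, had 20.55 RPM of RPF and 21.19 RPM of RNA in heart, against 4759.88 and 2892.43 RPM in TA. Per kb, Casq2 made up 98.5% of the pair in heart RPF and 97.9% in heart RNA, but 1.27% in TA RPF and 1.49% in TA RNA, a sharper split than that of the junctophilins. S100a1, a calcium-binding protein that acts on ryanodine receptors, had log2 ratios of 2.12 in RPF and 2.58 in RNA. Tmem38a, the TRIC-A counter-ion channel, had -1.93 and -1.35. Hrc, the histidine-rich calcium-binding protein that also binds triadin, was high in both tissues, with 3071.31 RPM of RPF in heart and 1688.41 RPM in TA, and log2 ratios within 2-fold (0.86 in RPF and 0.74 in RNA). Fkbp1a, the ryanodine receptor partner FKBP12, had efficiencies of 4.06 in heart and 4.05 in TA on 58 and 54 RNA reads. The handling of reads shared between near-identical copies is unstated, so this value is uncertain.

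Among L-type channel partners and other voltage-gated calcium channels, 2 of 3 were higher in heart and none lower, in RNA and in RPF. These were the T-type channels Cacna1g (2.28 in RPF, 3.22 in RNA) and Cacna1h (1.47 and 1.71), although Cacna1h stood at 0.87 in RPF once centred on the median gene. Over all genes compared, 35.0% were higher in heart RNA and 3.89% lower, with 30.1% and 5.08% in RPF. Cacna2d1, the alpha-2-delta subunit that both L-type channels share, had 197.49 RPM of RPF and 356.83 RPM of RNA in heart. Its TA levels were 388.59 and 578.06 RPM. Centred on the median gene, Cacna2d1 was past 2-fold lower in heart, at -1.39 in RNA and -1.57 in RPF. Per kb, Cacna2d1 was 0.875 of Cacna1c in heart RNA and 121 times it in TA RNA, where the skeletal pore subunit is not analysed here. Listing for 1 tissue went both ways. Cacnb3 (1.45 RPM of RPF, 1.93 RPM of RNA) and Cacnb4 (1.81 and 1.28 RPM) were listed for heart alone, on 18 and 12 RNA reads. Skeletal partners were listed for TA alone. Stac3, the adaptor needed for skeletal coupling, had 254.74 RPM of RPF and 138.55 RPM of RNA there. The gamma subunit Cacng1 had 185.38 and 106.82 RPM, and the triad protein Jsrp1 had 166.98 and 147.56 RPM. Cacng6, at 38.44 and 32.54 RPM, was listed for TA alone too. Among genes that build the tubules, Bin1, the amphiphysin that shapes them, was also listed for TA alone, with 515.04 RPM of RPF and 340.89 RPM of RNA, as was Sypl2 (mitsugumin 29). Of the 3 such genes compared, none was 2-fold apart in RNA, and Cav3, muscle caveolin, stood at 1.02 in RPF, with an interval of 0.92 to 1.13 across the threshold and a centred value of 0.43.

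Of 7 other genes of calcium entry, release and exit, 2 were higher in heart RNA, the IP3 receptors Itpr1 (1.73) and Itpr2 (1.19, centred 0.49), and 2 lower, the store sensors Stim1 (-2.62) and Stim2 (-1.10). In RPF none of the 7 was higher and 3 were lower, Stim1 (-3.58), Stim2 (-1.30) and the store-operated channel Orai1 (-1.30). The shares over all genes compared were 35.0% higher and 3.89% lower in heart RNA, and 30.1% and 5.08% in RPF. Orai1 was past 2-fold lower in RNA as well once centred on the median gene (-1.52). Among the CaMKII genes, the main cardiac kinase isoform Camk2d was higher in heart (1.87 in RPF, 2.24 in RNA). Camk2b (-2.79 and -4.0), Camk2a (-2.12 and -2.18) and Camk2g (-1.60 and -1.27) were lower. The efficiency of Camk2b differed by 1.40 between heart and TA (0.91 to 1.88), on 39 heart RNA reads, the only one of the 29 past 2-fold.

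**Figure D5:**
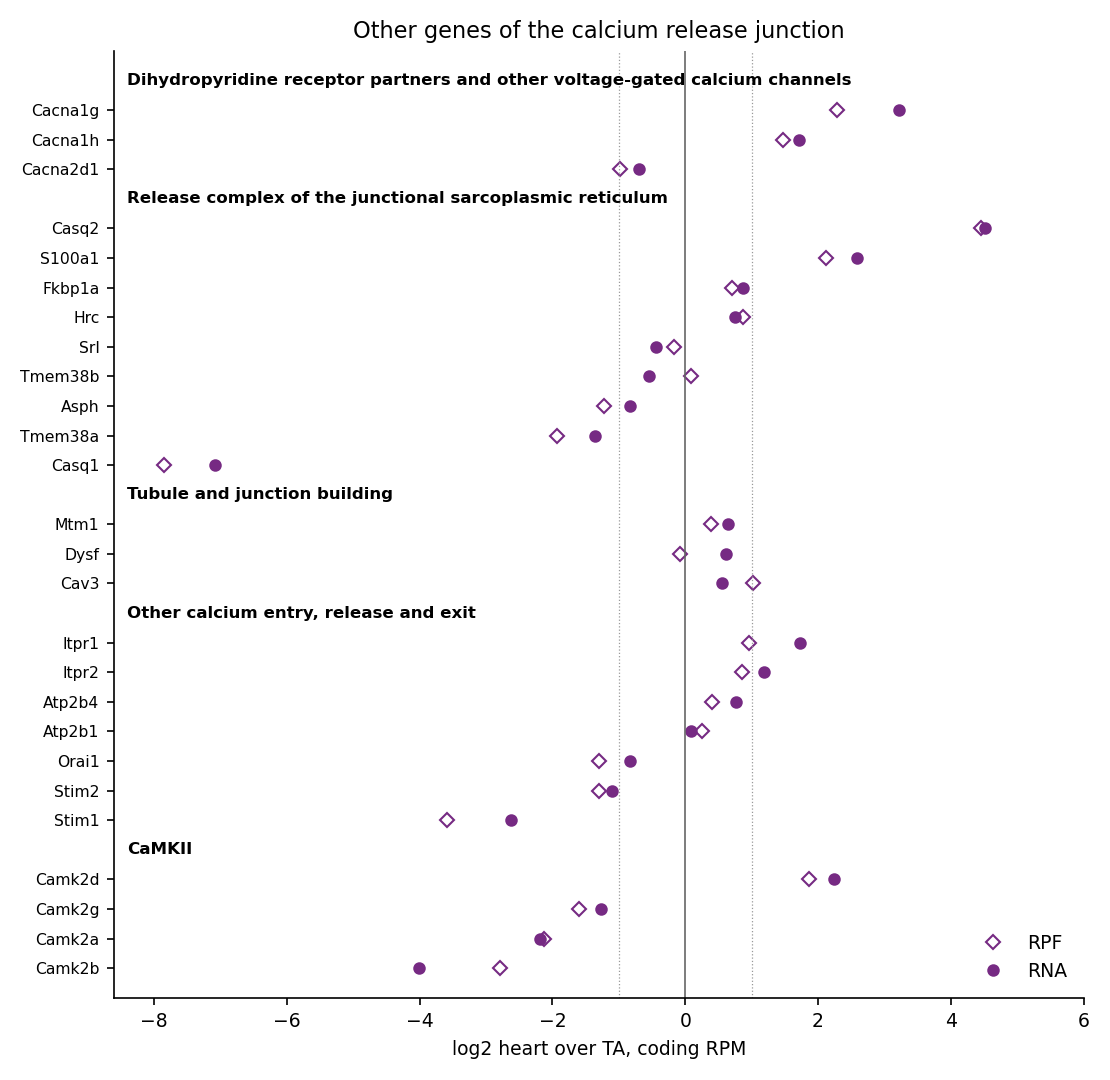
Log2 ratio of heart over TA (horizontal axis) of coding RPF (open diamonds) and coding RNA (filled points) for other junction genes, grouped by list, with dotted lines at 2-fold. Casq1 lies lowest (-7.85 in RPF, -7.09 in RNA) and Casq2 highest (4.46 and 4.52).

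The genes most like each member were taken as those at the smallest Euclidean distance in log2 RPM per kb over the libraries that list the member. For Jph2 these were Ube2g1 (0.47), Ube2l3 (0.48) and Ptges3 (0.54), and for Trdn they included Pgm2 (0.45) and Sar1b (0.83), over 4 libraries and 9906 genes. Cacna1c was nearest to Ccdc141 (0.82), Pcdh7 (0.95) and Ppip5k2 (1.15), Cacnb2 to Fam40b (1.02), Jph1 to Smox (0.84) and Slc8a1 to Alas2 (1.10). Over the 2 libraries of their own tissue, Ryr2 was nearest to Mylk3 (0.64), the cardiac myosin light chain kinase, among 885 genes listed for heart alone. Pygb (1.35) and Rps26 (1.57) came next. Ryr1 was nearest to Ampd1 (0.51), muscle AMP deaminase, among 446 genes listed for TA alone. Mylk2 (1.09), the skeletal myosin light chain kinase, and Rpl32 (1.15) followed at similar distances.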

How the data were processed

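The authors deposited RPM values, headed RPFM and RNAM per the file headers, over the coding part and both UTRs of 1 transcript model for each gene, with their lengths. The submitters' processing notes name Bowtie and mm9. How multi-mapping reads were handled is not given in the sources used. The deposited coding columns summed to 993727 to 998101 RPM, so values are relative to coding reads, and they were not divided by length by the authors. Coding lengths in the tables were 6 nt shorter than from start to stop codon in GENCODE for the 8 listed members. Per the labels' protocols, 1 lysate gave total RNA and, after RNase I and a pelleting spin with no clearing step before it, the RPF.

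Low values were whole multiples of 1 read within 0.005 RPM, the rounding, in 100% of 8204 to 15302 values per library. That made 1 RPM worth 28.2 reads (heart RPF), 9.34 (heart RNA), 28.6 (TA RPF) and 16.1 (TA RNA). The RPF steps are close to the rounding and were found only by a fine search over steps, while a coarser search did not return whole reads for RPF. RPF reads and every RPF interval are therefore less sure than those of RNA. With 1 library per group no count test has residual degrees of freedom, so intervals are exact conditional Clopper-Pearson for ratios, Wilson for shares and log-normal for efficiency differences.

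A pseudocount of 0.1 RPM was used, with a minimum of 1 RPM of RNA (the mean of both tissues for tissue ratios, each tissue for efficiency). Tissue ratios were not centred and used the same transcript model in both tables (4 genes had different ones, among them Asph). Where a symbol had several rows (5 surplus rows in heart, 4 in TA), the highest was used. Called means at least 2-fold. All members and any listed partner gene could be named, and for likeness the 3 nearest genes. A gene that this rule names is not reported here, though counts over the lists include it. Members and lists were chosen with earlier results of these data known. The coding length trend was removed with lowess (fraction 0.2). Scripts ran on Python 3.11.15 and were checked on simulated reads. They used scipy 1.17.1, numpy 2.4.6, statsmodels 0.14.6, pandas 2.3.3 and matplotlib 3.10.9. Alternatives changed the pseudocount, minimum, row choice, scaling, centring, length trend and, for the junction partners only, the fold.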

Additional observations from a re-analysis of the deposited data

Results flagged for a closer look

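The efficiency of Jph2 had opposite signs in the tissues, -0.62 in heart and 0.28 in TA relative to the median gene. The efficiency of Slc8a1 did so the other way, 0.075 in heart and -0.56 in TA. Without centring on the median gene the signs of Slc8a1 no longer differed, at -0.36 in heart and -0.82 in TA, and those of Jph2 still did, at -1.06 in heart and 0.024 in TA. With 1 library per group neither difference was tested. The counting intervals of the differences, -1.0 to -0.81 for Jph2 and 0.48 to 0.79 for Slc8a1, do not cover the variation between animals or libraries.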

How the results depend on the processing

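The RPF and RNA of a tissue came from 1 lysate, so each efficiency compares a matched pair of libraries. No test over replicate pairs was possible because each group had 1 library, and for the same reason no library could be left out in turn. Under the settings tried no member turned its sign where it was at least 2-fold apart, and the counts of members higher or lower in heart in RNA and RPF kept to within 1.5 times the counts reported. The fold rule itself was not varied for the members. Of the members called in RPF, Jph2 (-1.11) and Trdn (-1.27) lay nearest to the 2-fold line, so a stricter rule could lower that count. Counts of efficiency moved. With a minimum of 5 RPM, 0 members were 2-fold below the median gene in heart, and in TA 1 was above and 0 below. With no minimum, and with libraries scaled without the 50 most abundant genes, 1 was above in TA. That was Cacnb2, which only these settings admit there, while Trdn stood at 0.89 and 0.90. Without centring, 4 were below in heart, 2 below in TA and 1 was apart between the tissues. With the coding length trend removed, 0 were below in heart, and in TA 1 was above and 0 below. Among junction partners, a 1.5-fold rule gave 12 higher in RNA and 10 higher in RPF, a 3-fold rule gave 4 lower in RNA and 6 lower in RPF, and centring on the median gene, added after seeing the data, gave 15 lower in RNA. Not divided by length, Jph2 was 60.6% of the junctophilin pair in TA RPF and 38.0% in TA RNA. The causes were not tested beyond what each setting changes by construction. Of 228 values of single members under alternatives, 70 moved beyond their counting interval. Depth limits most the TA values of Cacnb2 (33 RPF and 10 RNA reads) and Cacna1c (131 and 151 reads).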
